A study of Mus musculus with 20 samples.

Results

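The genes described here encode proteins of the cardiac Z-disc and of the titin filament that are known as sensors or partners in sensing stretch. They are *Ankrd1*, *Ankrd2*, *Csrp3*, *Fhl1*, *Fhl2*, *Xirp1*, *Xirp2*, *Nrap*, *Ttn* and *Myoz2*, chosen by name, with earlier results of these data known. Of these 10 genes 9 had a probe, with 31 of the 45281 probes of the array, whose probes named 19057 genes in all. *Xirp1* had no probe under its present symbol, older symbol, gene identifier or transcript records, so no value is given for it. The number of probes per gene ran from 1 for *Ankrd2* to 12 for *Ttn*. Probes of a gene are numbered from the brightest over the 20 arrays, probe 1, to the dimmest. A level is a normalized linear intensity in arbitrary units. Apart from the order of brightness and a ratio between probes of *Csrp3*, levels of different probes were not set against each other.

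RNA came from ventricular tissue of male mice operated on at 10 to 12 weeks of age and killed 4 weeks later, at 14 to 16 weeks. The 8 sham mice comprised 4 control (CTL) and 4 double knockout (DKO) animals, and the 12 mice with transverse aortic constriction (TAC), which narrows the aortic arch and raises the pressure load of the left ventricle, comprised 6 CTL and 6 DKO animals. Both genotypes were homozygous for floxed *Dnmt3a* and floxed *Dnmt3b*, the genes of the de novo DNA methyltransferases, and only DKO mice carried a Cre recombinase, driven by the promoter of the atrial myosin light chain gene *Myl7* and acting in cardiomyocytes. No Cre-positive group without floxed alleles was among the samples, so that an effect of Cre and an effect of the deletion cannot be told apart. Each array was hybridised with RNA of 1 mouse, and the number of arrays limits the precision of each value.

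As background, the Z-disc anchors thin filaments and the ends of titin at the border of each sarcomere, and titin spans from there to the M-band as the elastic spring of the myofibril. Ankyrin repeat proteins (*Ankrd1*, *Ankrd2*) and LIM-domain proteins (*Fhl1*, *Fhl2*) bind the spring region of titin, whereas muscle LIM protein (*Csrp3*) and calsarcin-1 (*Myoz2*) reside at the Z-disc, the latter together with the phosphatase calcineurin. Proteins of the Xin family (*Xirp1*, *Xirp2*) and the nebulin-related anchoring protein (*Nrap*) bind actin where myofibrils end at the cell border and while they assemble. *Ankrd1* and *Fhl1* are widely used as stress-responsive genes of the loaded heart.

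Promoters of the 9 measured genes, taken from RefSeq on GRCm38.p6 and running from 250 bases before to 50 bases after the start, comprised 12 of 32851 mouse promoters. They were searched on both strands for 5 motifs. The TEAD motif was written as CATTCC, the motif of GATA factors as AGATAA and the E-box, bound by basic helix-loop-helix factors, as CANNTG, while the CArG box is bound by SRF and the MEF2 motif by MEF2 factors. The TEAD motif was found in promoters of *Ankrd1* and *Ttn* and in 14.7% of all promoters, the GATA motif in those of *Ankrd1* and *Fhl2* and in 11.2% of all. A CArG box stood in 3 of the 12 promoters, 1 of *Fhl1* and both of *Fhl2*, and in 1.63% of all. MEF2 was present in 4, those of *Myoz2*, *Ttn* and *Xirp2* and 1 of *Fhl2*, and in 3.19% of all promoters. E-boxes were found in all 12 and in 72.3% of all promoters. The promoters held between 1 and 27 CpG sites with a median of 5, against a median of 7 over all promoters, and the one with 27 was an *Fhl2* promoter. The bases before the start are printed 5′ to 3′ for genes whose brightest probe was called after TAC, except *Ttn*. Probe 1 of *Ttn* was called higher in DKO hearts, and its window, which held a MEF2 match, is not printed. Printed are those of *Ankrd1* and *Nrap* (higher in CTL hearts), *Fhl1* (higher in both genotypes) and *Fhl2* and *Myoz2* (lower in DKO hearts). Capitals mark each match, on either strand, to the TEAD, GATA factor, CArG box or MEF2 motif, and E-boxes are left in lower case. The windows are chr19:36119845-36120094 on the minus strand for *Ankrd1*, chrX:56779433-56779682 on the plus strand for *Fhl1*, chr19:56390039-56390288 on the minus strand for *Nrap*, chr1:43196762-43197011 on the minus strand for *Fhl2* and chr3:123034988-123035237 on the minus strand for *Myoz2*.
Ankrd1: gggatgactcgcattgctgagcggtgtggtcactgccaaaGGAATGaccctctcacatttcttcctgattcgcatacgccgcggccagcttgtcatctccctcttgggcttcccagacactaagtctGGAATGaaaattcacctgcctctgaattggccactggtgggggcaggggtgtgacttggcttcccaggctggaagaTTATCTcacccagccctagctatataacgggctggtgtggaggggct
Fhl1: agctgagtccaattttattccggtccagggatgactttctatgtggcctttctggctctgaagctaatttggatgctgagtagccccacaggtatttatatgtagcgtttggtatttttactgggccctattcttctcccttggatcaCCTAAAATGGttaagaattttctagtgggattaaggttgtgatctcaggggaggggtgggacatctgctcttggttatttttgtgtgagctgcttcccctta
Nrap: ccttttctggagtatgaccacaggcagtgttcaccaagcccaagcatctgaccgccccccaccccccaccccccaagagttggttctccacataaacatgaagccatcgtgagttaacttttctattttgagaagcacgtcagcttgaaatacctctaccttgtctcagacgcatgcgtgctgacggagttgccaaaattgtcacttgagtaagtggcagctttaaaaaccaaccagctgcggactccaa
Fhl2: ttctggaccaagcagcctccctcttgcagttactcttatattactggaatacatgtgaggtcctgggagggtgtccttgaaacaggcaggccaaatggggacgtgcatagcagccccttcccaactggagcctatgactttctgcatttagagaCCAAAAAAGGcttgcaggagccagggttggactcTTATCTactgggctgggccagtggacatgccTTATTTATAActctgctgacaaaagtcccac
Myoz2: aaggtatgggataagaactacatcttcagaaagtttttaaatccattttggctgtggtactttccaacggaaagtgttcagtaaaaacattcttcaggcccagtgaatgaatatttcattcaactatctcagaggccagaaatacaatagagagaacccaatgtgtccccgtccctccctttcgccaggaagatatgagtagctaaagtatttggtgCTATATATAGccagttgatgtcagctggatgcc
The *Nrap* window held no match to the motifs in capitals, the *Ankrd1* window held 2 TEAD and 1 GATA factor match, and the printed *Fhl2* window held a CArG box, a GATA factor and a MEF2 match. *Fhl1* and *Fhl2* each had 2 promoters, of which 1 is printed. The other *Fhl1* window held no match to these motifs, and the other *Fhl2* window, of the promoter with 27 CpG sites, held a CArG box alone. A match is a description of letters and not a measured binding site.

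Background was set on each array at the 95th percentile of 1504 probes of olfactory and vomeronasal receptors, at 57.9 to 68.0. Of the 31 probes, 23 were above it on all 20 arrays, with at least 1 such probe for every gene but *Ankrd2*. Sham and TAC arrays had been normalized as 2 separate sets before deposit, so that surgery and set cannot be told apart in any TAC comparison, even after the values were brought to a common distribution here. Some arrays stood apart. A list of 10 fast skeletal muscle genes lay 2.31 above its overall mean (log2) on sham CTL replicate 2 and between -0.41 and 0.24 on the other arrays. For 5 atrial genes the same measure was 1.81 on TAC DKO replicate 2, 2.39 on replicate 3 of that group and no more than 0.63 on any other array. Sham CTL replicate 4 had the highest level of *Ttn* probe 1 among sham arrays and the lowest of *Fhl1* and *Fhl2* probe 1. The TAC arrays fell into 2 sets, unevenly between genotypes. Background was 64.4 to 68.0 on CTL replicates 1 and 2 and DKO replicates 1 to 4, and 59.6 to 60.6 on the others. The same measure for cardiomyocyte markers was -0.50 to -0.33 on the former and -0.14 to 0.04 on the latter. The part of this split in the TAC values was not tested. The defining cardiomyocyte genes were present, with all 8 measured members of that list above background on all arrays. For *Dnmt3a* the brightest probe was above background on none of the arrays, and *Dnmt3b* differed by -0.15 (sham) and 0.06 (TAC) between genotypes on the log2 scale, at probes whose position relative to the deleted exons is unknown, so that they do not check the deletion.

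After TAC, the genes did not move as a block. In CTL hearts both bright probes of *Ankrd1*, of *Fhl1* and of *Nrap* rose, and a dimmer probe of *Csrp3*, a dimmer probe of *Xirp2* and 2 of *Ttn* fell. In DKO hearts *Fhl1*, a *Nrap* probe and 2 *Ttn* probes rose, whereas *Fhl2*, *Myoz2* and single probes of *Csrp3*, *Xirp2* and *Ttn* fell. Calls required both a fold change over 1.5 and a limma p that stayed under 0.05 once adjusted over all probes by the Benjamini-Hochberg method. In CTL hearts 6 of the 31 probes were called higher and 4 lower, against 1.76% and 3.4% of all probes (5.17% together). In DKO hearts 5 were called higher and 5 lower, against 2.46% and 4.27% of all probes (6.74% together). Another 9 and 8 probes had an unadjusted p under 0.05 without being called. With the called ones, 19 of the 31 probes in CTL and 18 in DKO hearts had such a p. Of all 45281 probes, 14794 in CTL and 17176 in DKO hearts had one. At the brightest probe of each gene, 3 of 9 genes were called higher and 0 lower in CTL hearts (8 at an unadjusted p under 0.05), and 2 higher and 2 lower in DKO hearts. Median log2 changes over these 9 probes were 0.36 and 0.09, beside 0.03 and 0.04 over the brightest probes of all genes. The arrays of TAC and sham did not overlap for 8 of the 31 probes in CTL hearts (6 higher, 2 lower) and for 10 in DKO hearts (5 higher, 5 lower), beside 8.37%, 7.78%, 11.1% and 9.38% of all probes in these directions. No called direction turned under another scaling of the arrays, but the counts did depend on it. With arrays centred on their median in place of quantile normalization, the TAC effect at the 23 bright probes was lower by a median of 0.45 on the log2 scale in both genotypes, and 2 probes were called higher and 7 lower in each genotype. The calls of *Ankrd1* and *Nrap* were then lost, as were those of *Ttn* probes 1 and 8 in DKO hearts, and those of *Fhl1* were not. *Ankrd1* probe 2 and *Xirp2* probe 1 were newly called lower in DKO hearts. *Fhl2* and *Myoz2* probe 1 were newly called lower in CTL hearts, as they also were with the values as deposited (-0.63 and -0.67). Whether fewer cardiomyocytes or less RNA per cardiomyocyte underlies a lower level in tissue cannot be told apart.

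**Figure D1:**
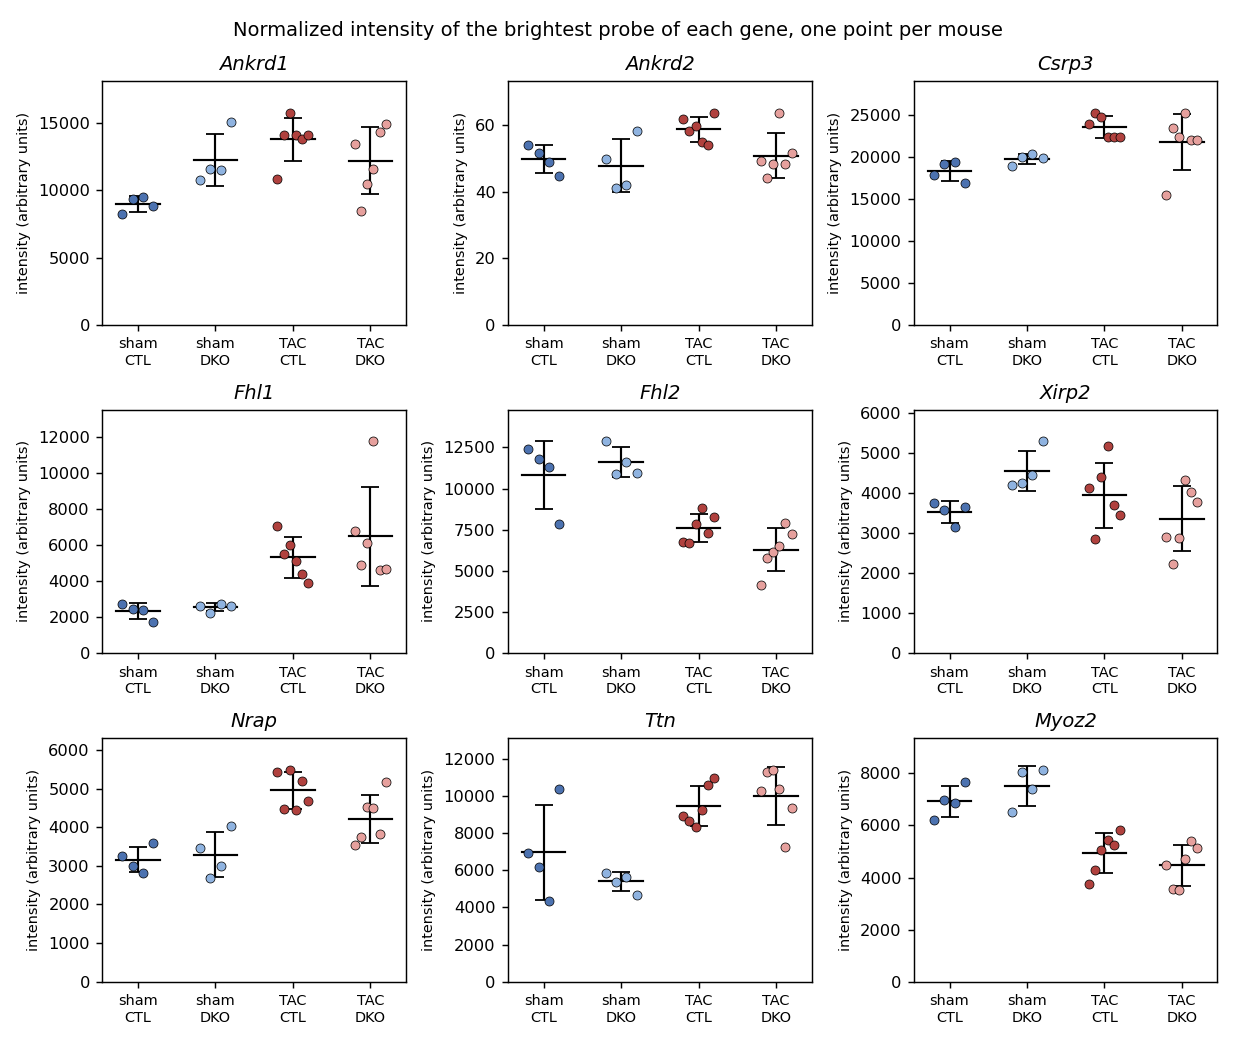
Normalized intensity (arbitrary units, axis from 0) of the brightest probe of each of the 9 measured genes on every array, grouped by surgery and genotype. Each point is 1 mouse, the long bar is the group mean and the whiskers are ± 1 SD (n = 4 per sham and 6 per TAC group). *Fhl1* (higher after TAC) and *Myoz2* (lower after TAC) separate sham from TAC arrays in both genotypes, and all *Ankrd2* arrays but 1 lie below background.

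*Ttn* encodes titin itself. Probe 1 read 6937, 6153, 4341 and 10384 on the sham CTL arrays and 5858, 5371, 5650 and 4693 on the sham DKO arrays. After TAC the lowest, median and highest levels were 8335, 9090 and 10974 in CTL and 7236, 10331 and 11403 in DKO hearts. The DKO groups did not overlap, whereas sham CTL replicate 4 lay within the range of the TAC CTL arrays. The log2 change with TAC was 0.51 in CTL (standard error 0.16, limma adjusted p = 0.0244, a fold change of 1.42 and thus not called) and 0.88 in DKO hearts (standard error 0.16, adjusted p = 0.000177). Without sham CTL replicate 4 the change in CTL hearts was 0.72 (adjusted p = 0.000359) and passed the fold threshold. Over 30 settings of the processing, this change in CTL hearts ran from 0.065 to 0.78, with a highest limma adjusted p of 0.818. The other *Ttn* probes differed in direction. Probe 3 had 0.54 in CTL (adjusted p = 0.00431 from limma) and 0.52 in DKO hearts (adjusted p = 0.00486), under the fold threshold, and probes 2 and 4 had 0.72 and 0.74 in DKO hearts with adjusted p of 0.0794 and 0.129. Probe 6 fell, by 1.36 on the log2 scale in CTL (standard error 0.29, adjusted p = 0.00123) and by 1.10 in DKO hearts (standard error 0.29, adjusted p = 0.0058), and its change in CTL hearts was -0.93 without sham CTL replicate 4. Probe 8 rose in DKO hearts (0.80, adjusted p = 0.00216). With arrays centred on their median, the rises of probes 1 and 8 in DKO hearts were 0.43 and 0.50, and both calls were lost. Probe 9, above background on 19 arrays, was called lower in CTL hearts (-0.71, adjusted p = 0.0195), a call that was lost without sham CTL replicate 4 (-0.34, adjusted p = 0.0959). Probes 2 to 5 and 7 were not called in either genotype, and probes 10 to 12 were above background on at most 9 arrays.

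*Ankrd1* encodes the cardiac ankyrin repeat protein, a titin-bound cofactor that also enters the nucleus. Probe 1 read 8252, 9364, 9496 and 8818 in sham CTL and 10760, 11597, 11520 and 15056 in sham DKO hearts. In TAC CTL hearts it ran from 10835 over a median of 14105 to 15762, and in TAC DKO hearts from 8440 over 12530.2 to 14923. All TAC CTL arrays lay above all sham CTL arrays, whereas the DKO groups overlapped over most of their range. With TAC the log2 level changed by 0.61 in CTL hearts (standard error 0.13, limma adjusted p = 0.00111), whereas the DKO estimate was -0.02 (95% interval -0.29 to 0.25, adjusted p = 0.939). Probe 2 gave 0.71 (standard error 0.23, adjusted p = 0.0278) and -0.20 (adjusted p = 0.566). With arrays centred on their median, probe 1 had 0.20 in CTL and -0.42 in DKO hearts (limma adjusted p = 0.286 and 0.0175) and probe 2 had 0.25 and -0.65 (adjusted p = 0.475 and 0.0345), so that the level of both estimates depended on the scaling. The 2 effects were compared directly through the interaction of genotype and surgery, -0.63 at probe 1 (95% interval -1.01 to -0.25) and -0.91 at probe 2 (-1.58 to -0.24), with an unadjusted p of 0.00224 and 0.0102 from limma and an adjusted p of 0.939 at both, so that the difference did not pass. The call of probe 1 in CTL hearts was lost without sham CTL replicate 1 (0.57, a fold change under 1.5) and without TAC CTL replicate 3 (0.57), and that of probe 2 without sham CTL replicate 4 (0.42, adjusted p = 0.159) and without TAC CTL replicate 3 or 4 (0.61 and 0.64).

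*Ankrd2* is a paralog of *Ankrd1* known mainly from slow skeletal muscle. Its single probe was above background on 1 array, in the TAC CTL group, and lay between 41.2 and 63.7 over all arrays, so that no fold is given. On sham CTL replicate 2, the array with the high skeletal muscle markers, it read 51.7 and was not above background.

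*Fhl1* encodes a LIM protein that binds the titin spring and takes part in hypertrophic signalling. Probe 1 read 2746, 2476, 2373 and 1753 in sham CTL and 2644, 2235, 2706 and 2619 in sham DKO hearts. After TAC its lowest, median and highest levels were 3876, 5296 and 7036 in CTL and 4615, 5489 and 11736 in DKO hearts, with the highest on TAC DKO replicate 4. No TAC array overlapped with a sham array of its genotype. The log2 change was 1.18 in CTL (standard error 0.20, limma adjusted p = 0.00012, a fold change of 2.26) and 1.26 in DKO hearts (standard error 0.20, adjusted p = 3.85e-05, a fold change of 2.39). Probe 2 gave 1.26 and 1.24, and probe 3 was above background on none of the arrays. The interaction at probe 1 was 0.08 (95% interval -0.50 to 0.67), which leaves room for sizeable differences either way.

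*Fhl2* encodes the heart-enriched relative of *Fhl1*, a coregulator that restrains several signalling pathways. Probe 1 read 12413, 11809, 11337 and 7820 in sham CTL and 12870, 10898, 11597 and 10974 in sham DKO hearts. It ran from 6680 over 7573 to 8818 in TAC CTL and from 4128 over 6318 to 7888 in TAC DKO hearts. Sham CTL replicate 4 alone lay among the TAC CTL arrays, and the DKO groups were separate. The log2 change was -0.50 in CTL (standard error 0.14, limma adjusted p = 0.0121, fold change under 1.5) and -0.91 in DKO hearts (standard error 0.14, adjusted p = 2.6e-05, 1.88-fold lower). Without sham CTL replicate 4 it was -0.65 in CTL hearts (adjusted p = 0.000927) and was called. With median centring it was -0.94 in CTL hearts (limma adjusted p = 9.92e-06) and was called. The interaction of -0.41 had an adjusted p of 0.939. Probe 2, at 73.5 to 151, changed by 0.10 and -0.22 and was not called.

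*Csrp3*, the gene of muscle LIM protein, is among the brightest genes on the array at probe 1. This probe read 17871, 19208, 19390 and 16956 in sham CTL and 19010, 20078, 20357 and 19863 in sham DKO hearts. It ran from 22438 over 23232 to 25318 in TAC CTL and from 15548 over 22284 to 25318 in TAC DKO hearts. The TAC CTL arrays lay above all sham CTL arrays, whereas TAC DKO replicate 1 lay below all sham DKO arrays. The log2 change was 0.36 in CTL (standard error 0.09, limma adjusted p = 0.00523) and 0.12 in DKO hearts (adjusted p = 0.342), and neither passed the fold threshold. Over 30 settings of the processing, the CTL change ran from 0.03 to 0.39, with a highest limma adjusted p of 0.858. In DKO hearts it ran from -0.22 to 0.22 over 29 settings, so that its direction depended on the processing. Probe 3 fell. It read 6985 to 7369 in sham CTL and 7131 to 7638 in sham DKO hearts, and 2536 to 4636 and 2164 to 3837 after TAC, without overlap. Its log2 change was -1.04 (standard error 0.14, adjusted p = 5.4e-06) and -1.32 (standard error 0.14, adjusted p = 1.31e-07). Within each array, the log2 ratio of probe 3 to probe 2 lay between -0.86 and -0.64 on the 8 sham arrays and between -2.55 and -1.80 on the 12 TAC arrays. The ratio of every TAC array thus lay below that of every sham array.

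**Figure D2:**
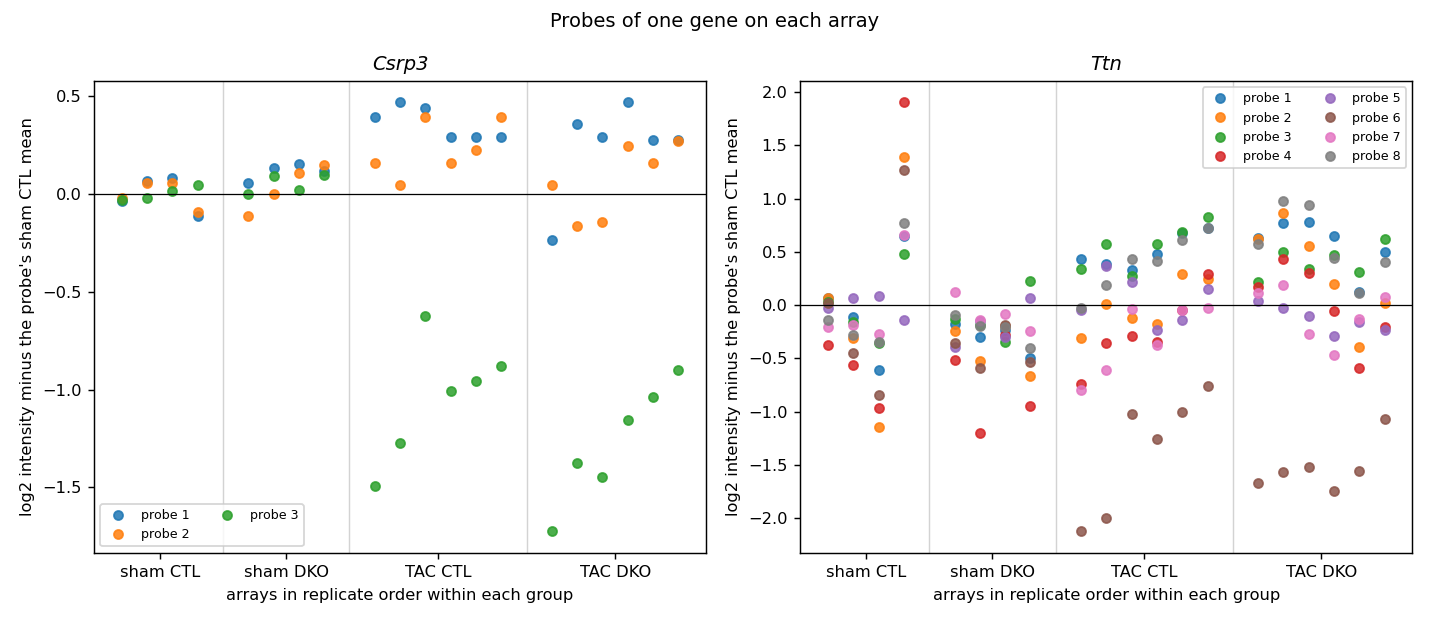
Log2 intensity of each probe of *Csrp3* (left) and *Ttn* (right) that was above background on all arrays, minus that probe's mean over the sham CTL arrays. Each column of points is 1 array, in replicate order within its group, and colours are probes. *Csrp3* probe 3 and *Ttn* probe 6 lie low on the TAC arrays while the brightest probe of each gene lies at or above 0 on most of them, and sham CTL replicate 4 lies high for all *Ttn* probes but probe 5.

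How far probes of a gene differed varied between genes, and a range grows with the number of probes. Over the 1670 genes of the array with 2 probes above background, the range of the TAC effect between probes had a median of 0.26 in CTL and 0.31 in DKO hearts (log2). It was 1.10 and 0.77 for *Xirp2*, but 0.10 and 0.18 for *Ankrd1* and 0.09 and 0.02 for *Fhl1*, each with 2 such probes. For *Csrp3*, with 3 such probes, it was 1.40 and 1.45, beside medians of 0.45 and 0.51 over 419 genes with 3. For *Ttn*, with 8, it was 1.91 and 1.98, beside 0.54 and 0.69 over 90 genes with 4 to 8. Among genes with at least 2 probes above background and a call, 2.44% in CTL hearts (14 of 573) and 2.62% in DKO hearts (20 of 764) had probes called in both directions, and *Ttn* was among the 20. Where each probe lies in its transcript was not used here.

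*Myoz2* encodes calsarcin-1, a Z-disc inhibitor of calcineurin. Probe 1 read 6229, 6985, 6861 and 7672 in sham CTL and 6505, 8051, 7395 and 8140 in sham DKO hearts. It ran from 3750 over 5161 to 5818 in TAC CTL and from 3537 over 4606 to 5404 in TAC DKO hearts. Neither genotype showed overlap between sham and TAC. The log2 change was -0.50 in CTL (standard error 0.12, limma adjusted p = 0.00444, fold change under 1.5) and -0.76 in DKO hearts (standard error 0.12, adjusted p = 4.9e-05, 1.70-fold lower), with an interaction of -0.26 (95% interval -0.63 to 0.10). With median centring the change of probe 1 in CTL hearts was -0.97 (limma adjusted p = 1.1e-06) and was called. Probe 2, a dim probe, had -0.17 and -0.31 and was not called.

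*Nrap* encodes the nebulin-related anchoring protein of assembling myofibrils and intercalated discs. Probe 1 read 3260, 2999, 2811 and 3585 in sham CTL and 3465, 2688, 2985 and 4027 in sham DKO hearts. It ran from 4446 over 4934 to 5488 in TAC CTL and from 3551 over 4153 to 5171 in TAC DKO hearts, where 3 of 6 arrays lay below the highest sham DKO array. The log2 change was 0.65 in CTL (standard error 0.11, limma adjusted p = 0.00013) and 0.36 in DKO hearts (standard error 0.11, adjusted p = 0.0171, fold change under 1.5). Probe 2 rose in both, by 1.0 (adjusted p = 2.16e-07) and 0.85 (adjusted p = 1.27e-06), from 591 to 768 on the sham arrays to 1036 to 1662 on the TAC arrays. Probe 3 was above background on none of the arrays.

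*Xirp2* encodes the larger Xin repeat protein. Probe 1 read 3750, 3580, 3138 and 3643 in sham CTL and 4206, 4249, 4438 and 5288 in sham DKO hearts. It ran from 2842 over 3907 to 5171 in TAC CTL and from 2232 over 3347 to 4327 in TAC DKO hearts. TAC and sham overlapped in both genotypes. The log2 change was 0.14 in CTL (adjusted p = 0.589 from limma) and -0.47 in DKO hearts (standard error 0.16, adjusted p = 0.0275, fold change under 1.5). With median centring these were -0.31 (adjusted p = 0.157) and -0.92 (adjusted p = 5.52e-05). The difference between genotypes, -0.61 (95% interval -1.06 to -0.15), had an unadjusted p of 0.0115 and an adjusted p of 0.939. Probe 2 fell in both genotypes, by 0.96 (adjusted p = 0.000634) and 1.24 (adjusted p = 2.87e-05) on the log2 scale, and by 0.67 in CTL hearts without sham CTL replicate 4. Probe 3 was above background on none of the arrays.

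**Figure D3:**
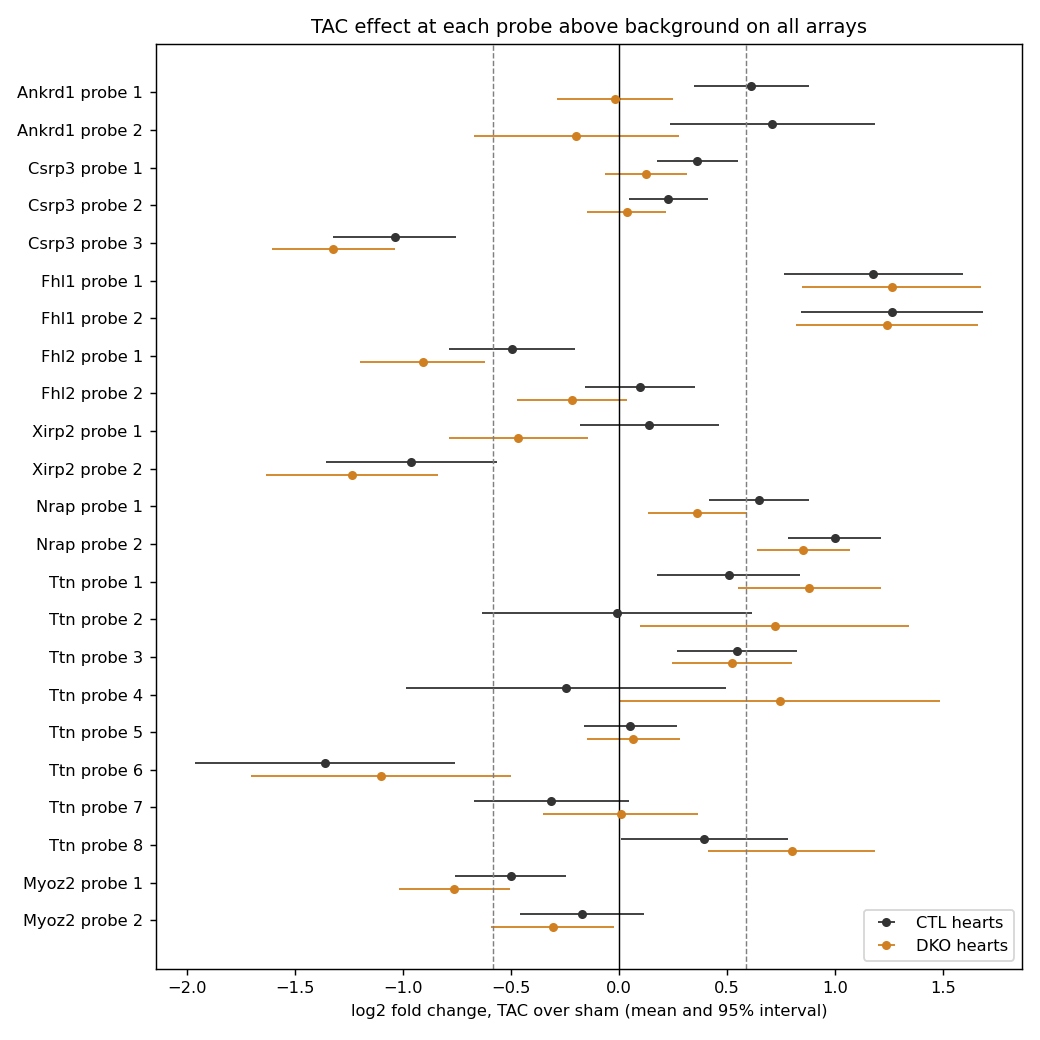
Log2 fold change of TAC over sham at the 23 probes above background on all arrays, in CTL (black) and DKO hearts (orange). Points are limma estimates, bars 95% intervals, dashed lines a fold change of 1.5. Both *Fhl1* probes lie above 1 in each genotype, and the *Ankrd1* probes lie above 0.6 in CTL hearts and near 0 or below in DKO hearts. Probes of *Csrp3* and *Ttn* lie on both sides of 0 in each genotype, those of *Fhl2* and *Xirp2* in CTL hearts alone.

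Other levels moved with surgery in the same hearts. The mean over the 8 measured cardiomyocyte markers of their log2 deviation from the mean of all arrays lay between 0.26 and 0.43 on the sham arrays and between -0.50 and 0.04 on the TAC arrays, and *Pln*, *Tnni3* and *Ryr2* of that list fell in both genotypes. The 5 leukocyte markers lay between 0.000638 and 0.49 on sham and between -0.42 and 0.02 on TAC arrays. Smooth muscle markers lay between -0.60 and -0.115 on sham and between -0.108 and 0.47 on TAC arrays, and of these 5 genes *Myh11* and *Tagln* were called higher in CTL hearts and these with *Acta2* in DKO hearts. Fibroblast markers overlapped between sham (-0.25 to 0.08) and TAC (-0.23 to 0.48), as did endothelial markers (-0.24 to 0.31 and -0.08 to 0.24). All 4 hypertrophy markers rose in CTL hearts (*Nppa* 2.24, *Acta1* 2.26, *Myh7* 1.04 and *Nppb* 0.80 on the log2 scale), and 3 of 4 in DKO hearts, where *Nppb* had 0.48 (adjusted p = 0.0819 from limma). The part of these shifts in the changes of the Z-disc and titin genes was not tested.

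Genotype made no called difference at any of the 31 probes, in sham or in TAC hearts, by limma. Among all probes DKO exceeded CTL with a call at 0.0883% in sham hearts and fell below it at 0.0133% (0.102% together), and after TAC the shares were 0.128% and 0.0155% (0.144% together). At an unadjusted p under 0.05 there were 3 of the 31 probes in sham and 3 in TAC hearts, beside 2514 and 4073 of all 45281 probes. In sham hearts these were both *Ankrd1* probes and *Xirp2* probe 1, and for each of them all 4 DKO arrays lay above all 4 CTL arrays, an arrangement found in that direction at 1.81% of all probes. The log2 difference was 0.44 for *Ankrd1* probe 1 (95% interval 0.14 to 0.73, adjusted p = 0.655), 0.84 for its probe 2 (0.32 to 1.35, adjusted p = 0.51) and 0.36 for *Xirp2* probe 1 (0.01 to 0.72, adjusted p = 0.888). *Ankrd1* probe 2 varied widely among the sham CTL arrays, from 2486 to 6229. Its TAC change in CTL hearts, which rests on the same arrays, was 0.42 in place of 0.71 without sham CTL replicate 4. *Ttn* probe 1 had -0.30 in sham hearts and -0.08 without sham CTL replicate 4. After TAC the 3 probes were those of *Fhl2* (-0.30, 95% interval -0.56 to -0.04) and *Nrap* (-0.24, -0.45 to -0.03) and the dim *Ankrd2* probe. For *Fhl1* the interval ran from -0.31 to 0.60 in sham and from -0.15 to 0.60 in TAC hearts, wide enough to hold a fold change of 1.5. Groups of the 2 genotypes did not separate at any of the 31 probes after TAC, beside 0.338% and 0.216% of all probes that were separate upward and downward. The interaction was called at none of the 31 probes by limma (0.00221% of all probes). At an unadjusted p under 0.05 there were 4 of the 31, beside 2132 of all 45281 probes. These 4 were both *Ankrd1* probes, *Xirp2* probe 1 and *Fhl2* probe 1, all negative. 

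The atrial marker list lay between -0.13 and 0.63 (log2) on sham DKO and between -0.66 and -0.42 on sham CTL arrays, thus without overlap, in the same direction as *Ankrd1* and *Xirp2*. The list was chosen with earlier results of these data known, so that its separation is no independent support. Of its 5 genes, 1 was called higher in sham DKO hearts and 2 were above background on all arrays. After TAC the list was highest on DKO replicates 2 and 3, which held the lowest levels of *Myoz2* probe 1 and the highest of *Ttn* probe 1, while replicate 2 had the lowest level of *Ankrd1* and *Xirp2* probe 1 among the TAC DKO arrays. The part of atrial RNA in these values was not tested.

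**Figure D4:**
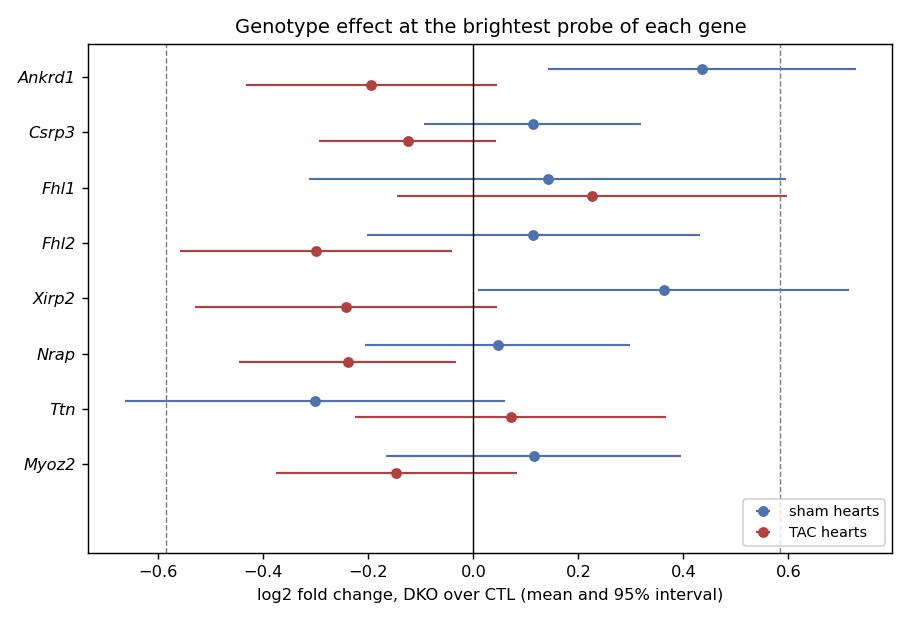
Log2 fold change of DKO over CTL at the brightest probe of each gene above background, in sham (blue) and TAC hearts (red). Points are limma estimates, bars 95% intervals, dashed lines a fold change of 1.5. The sham intervals of *Ankrd1* and *Xirp2* lie above 0 and the TAC intervals of *Fhl2* and *Nrap* below 0, while no probe was called.

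Ordering the 4 groups by the mean log2 level of probe 1 gave different orders for different genes. *Ankrd1* was lowest in sham CTL and highest in TAC CTL hearts, with TAC DKO (11979) and sham DKO hearts (12129) next to each other in between as geometric means, a pair that differed by less than its standard error. *Xirp2* was highest in sham DKO and lowest in TAC DKO hearts. *Fhl2* and *Myoz2* ran from TAC DKO over TAC CTL and sham CTL to sham DKO hearts, *Csrp3* and *Nrap* from sham CTL over sham DKO and TAC DKO to TAC CTL hearts. Within each surgery the neighbouring genotypes were not called different for any of these genes.

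Mice of the same group also varied. Deviations from the group mean at probe 1 of the 8 genes above background were correlated over the 20 arrays for 28 pairs, of which 17 were positive, with a median of 0.10. The highest correlations were between *Ankrd1* and *Myoz2* (0.77), *Myoz2* and *Xirp2* (0.54) and *Csrp3* and *Fhl2* (0.52), and the lowest between *Fhl2* and *Ttn* (-0.44) and *Ankrd1* and *Ttn* (-0.43). Without sham CTL replicate 4 these became 0.79, 0.54, 0.49, -0.15 and -0.55. The points share their arrays and the normalization, and these values are a description without a test. *Fhl1* was the gene with the smallest p for TAC in CTL hearts at its probe 1, and the genes outside the list most like it over the 20 arrays were *Pcgf5* (Pearson r = 0.967), *Asap2* (0.966), *Tmem43* (0.966), *Cep120* (0.964) and *Plekha4* (0.959). Within groups their correlations with *Fhl1* were 0.85 to 0.88.

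**Figure D5:**
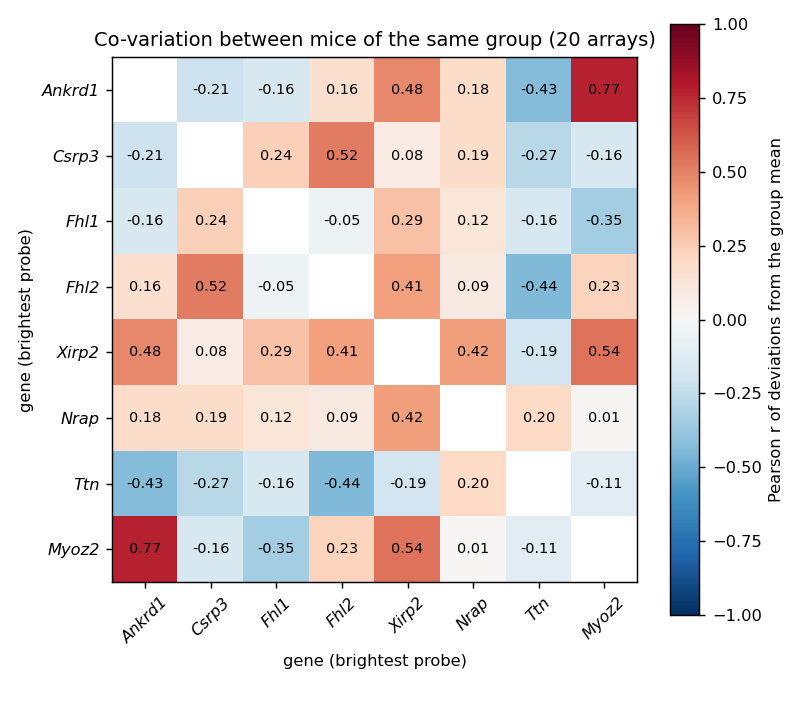
Pearson correlation between genes of the deviation of each array from its group mean (log2 level of probe 1, 20 arrays), with red positive and blue negative. *Ankrd1* and *Myoz2* have the highest value, 0.77, and *Ttn* is negative with 6 of the 7 other genes.

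Levels on the 12 TAC arrays were compared with *Nppb*, the gene of B-type natriuretic peptide and a marker of wall stress, in 9 relations. *Ttn* had r = -0.68 (permutation p = 0.0147, adjusted p = 0.132) and rho = -0.75 (permutation p = 0.0072, adjusted p = 0.0648), and no gene passed after adjustment. Within TAC CTL hearts r was -0.97 (exact permutation p = 0.00556, adjusted p = 0.05, n = 6), within TAC DKO hearts -0.51 (exact permutation p = 0.311, n = 6). Without the 2 arrays farthest from the median of *Nppb*, r was -0.87 (permutation p = 0.00139, adjusted p = 0.0125, n = 10). *Fhl1* and *Xirp2* had r = 0.55 and 0.58, both with a permutation adjusted p of 0.15. *Xirp2* had the same rank order as *Nppb* in the 6 TAC DKO hearts (rho = 1.0, exact permutation p = 0.00278, adjusted p = 0.025) and rho = -0.03 in TAC CTL hearts. Its r in the TAC DKO hearts was 0.88 (exact permutation adjusted p = 0.162) and did not pass. Each adjustment covered only the 9 relations of a single set of arrays and a single measure. With *Nppa* in place of *Nppb*, a choice made after seeing the data, *Ttn* had r = -0.35 and no relation passed.

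Neighbouring parts of the sarcomere gave the setting, each described at the brightest probe of a gene. Over all 19057 genes, 2.74% were called higher and 4.2% lower with TAC in CTL hearts, and 3.99% and 5.17% in DKO hearts. Of 30 other Z-disc genes, 3 rose and 2 fell in CTL hearts, and 3 rose and 5 fell in DKO hearts, with median log2 changes of 0.09 and 0.04. *Flnc*, encoding the actin crosslinker filamin C, had 1.04 and 0.80, and *Csrp2*, a relative of *Csrp3*, had 1.23 and 1.11. *Pdlim3*, a PDZ and LIM protein that binds alpha-actinin, had 0.88 and 0.69. *Mypn*, encoding the titin- and nebulin-binding protein myopalladin, fell by 0.65 and 0.77, and *Lmod2*, a leiomodin that lengthens thin filaments, fell by 0.60 and 0.73. Called lower in DKO hearts alone were *Cryab* (-0.86, against -0.33 in CTL), the *Ankrd1* relative *Ankrd23* (-0.72, against 0.03) and *Cavin4* (-0.74, against -0.47), without a called interaction at any member of the list. Of 11 titin- and M-band-associated genes, *Mybpc3* (0.77) and *Myom3* (0.66) rose in CTL hearts and 0 fell, whereas *Myom3* rose (0.69) and *Smyd1*, a muscle methyltransferase, fell (-1.05) in DKO hearts. Of 13 costamere and integrin genes, *Zyx* (0.83 and 0.84) rose and *Vcl* (-0.77 and -1.11) and *Tln2* (-1.06 and -1.15) fell in both genotypes, and *Sgcd* rose in DKO hearts (0.71). None of these genes was called between genotypes.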

How the data were processed

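Illumina bead chips measured ventricular RNA of 20 mice, and groups were taken from the labels. The authors processed the arrays in GenomeStudio 2010.3 and deposited linear intensities, without stating the background and normalization steps in the sources used here. Sorted deposited values were equal within 0.2% for at least 97.6% of probes among sham and 99.9% among TAC arrays, but for at most 0.413% between the sets. Here intensities were log2 transformed without an offset and quantile normalized over all arrays. A model with 4 group means was fitted to 45281 probes with limma 3.58.1 in R 4.3.3, where 6.64 prior degrees of freedom joined 16 residual ones, and the scripts were tested on simulated data. Symbols came from the platform annotation, with 34885 probes naming 1 gene, 18 several and 10378 none. All probes of the listed genes were reported, the brightest as probe 1, and the 5 genes most correlated with the leading one. Correlations used 100000 resamples, or exact enumeration for 6 arrays, and no other comparison was made by permutation. The listed genes and the comparison lists were chosen with earlier results of these data known. A limma p sets a difference against the spread between mice within groups, shared by the 4 groups and drawn toward a value common to all probes. A permutation p comes from reordering the TAC arrays.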

Additional observations from a re-analysis of the deposited data

Results flagged for a closer look

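Of 92 groups of arrays at the 23 bright probes, 6 (6.52%) held an array far from the others by Dixon's ratio of gap to range, where chance gives about 1 in 20. The lowest array stood apart for *Ankrd1* probe 1 in TAC CTL hearts (10800, replicate 1), *Csrp3* probe 1 in TAC DKO hearts (15500, replicate 1), *Fhl1* probe 1 in sham DKO hearts (2240, replicate 2) and *Fhl2* probe 2 in sham CTL hearts (73.5, replicate 4). The highest array stood apart for *Ttn* probe 6 in TAC DKO hearts (190.0, replicate 6) and *Ttn* probe 7 in sham CTL hearts (292, replicate 4). Sham CTL replicate 4 thus accounted for 2 of the 6.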

How the results depend on the processing

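Over 58 named values, 1644 of 1702 recomputed values kept direction and call, 14 uncalled ones changed sign, 26 lost a call, 18 gained one and 0 called values turned. Probes called with TAC in CTL hearts went from 6 to 2 higher and from 4 to 7 lower under median centring, and to 3 higher with the values as deposited. In DKO hearts 5 became 2 higher and 5 became 7 lower under median centring. As deposited, the median of all probes shifted by 0.28 in CTL and 0.29 in DKO hearts (log2), and relative to it the rises are smaller. Leaving out each array in turn gave 5 to 8 higher and 4 lower probes in CTL, and 5 to 7 higher and 5 lower in DKO hearts. Genotype and interaction counts were 0 in every setting. The 2 *Fhl1* probes, *Csrp3* probe 3, *Xirp2* probe 2 and *Ttn* probe 6 kept their calls in both genotypes in every setting, as did *Fhl2* and *Myoz2* probe 1 in DKO hearts. *Ankrd1* probe 1 lost its call in CTL hearts in 5 of 30 settings (highest adjusted p = 0.286 from limma) and probe 2 in 9 (highest adjusted p = 0.475). Without the 2 arrays farthest from the median, 1 relation with *Nppb* passed in place of 0. Whether array numbers pair the mice was not settled. Same-numbered CTL and DKO arrays had correlations of 0.017 to 0.327 in sham (median 0.099) and -0.25 to 0.49 in TAC hearts (median 0.19). Differently numbered ones had -0.37 to 0.074 (median -0.038) and -0.55 to 0.38 (median 0.001). With the replicate number as a block, 4 probes were called higher and 5 lower in CTL hearts and 5 and 5 in DKO hearts. The cause of these changes was not tested.

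Dim probes limit *Ankrd2*, and saturation of bright probes such as *Csrp3* probe 1 could not be checked from the intensities alone.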
